A study of Mus musculus with 36 samples.

Results

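The nuclear respiratory chain genes described here encode most subunits of complexes I, II and III and of the ATP synthase, complex V. Members were the gene entries whose symbol begins with Nduf and a subunit letter and number, with Uqcr or with Atp5, or is Sdha, Sdhb, Sdhc or Sdhd, and which stand in all 6 tables. Of 37561 entries, 69 had such a symbol. Leaving out 1 entry named as a pseudogene and the weaker of a pair of Ndufb8 entries gave 67 genes, 37 of complex I, 4 of complex II, 8 of complex III and 18 of complex V. The name rule also took in genes that are not core subunits: Ndufa4 is today placed with complex IV, Ndufa4l2 is its hypoxia-linked relative, and Atp5s and Atp5sl are not ATP synthase subunits in current naming.

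RNA was sequenced from AB2.2 mouse embryonic stem cells and from AB2.2-LncCPR-/- cells, in which the long noncoding RNA gene LncCPR was deleted. Cas9 and a pair of guide constructs flanking the gene made the deletion, and sorted single cells were grown into lines, with no statement of how many lines stand behind the knockout libraries. Day 0 samples were undifferentiated cells kept with the cytokine LIF, whose 7 pluripotency markers summed to 2161 to 2278 FPKM over the 6 libraries. Of the 7, Esrrb was listed at 0 in all 6 libraries. Days 3, 5, 8, 10 and 12 were whole embryoid bodies, aggregates grown in hanging drops without LIF, in which cells of all germ layers form. Each of the 2 lines gave 3 libraries a day, 36 in 12 groups, and nothing in the labels says whether the 3 were separate cultures, so p-values measure only the spread between these libraries.

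The respiratory chain passes electrons from NADH through complex I, and from succinate through complex II, to complex III and on to complex IV, and the proton gradient that results drives ATP synthesis by complex V. Complex II is encoded wholly in the nucleus, while complexes I, III, IV and V also need subunits encoded in the mitochondrial genome. Pluripotent stem cells draw much of their ATP from glycolysis, and heart muscle is among the tissues richest in respiratory chain.

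Levels are FPKM, which scales fragments by the length of the transcript and by the library's total. Library values summed to between 294740 and 403675 FPKM, 11248 to 13183 genes lay above 1 FPKM, and absolute depth is unknown. The 10 most abundant genes held 11.3% to 30.3% of a library. Relative to the other libraries of their day, control replicate 1 at day 3 had all genes at a median of 0.719 times, and control replicate 3 at day 10 at 0.823 times, so both read low. The mitochondrial ribosomal RNA mt-Rnr2 stood at 0 in 32 of the 36 libraries and at 38464 and 49728 FPKM in control replicates 1 and 2 at day 3, 69239 in knockout replicate 1 at day 8 and 53138 in knockout replicate 3 at day 12. No entry is named LncCPR. A noncoding entry picked after its values were seen, 4930500J02Rik, ran from 5.66 to 49.5 FPKM in the 18 control libraries and from 0 to 0.280 in the 18 knockout libraries.

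The promoters of these genes are known to carry sites for nuclear respiratory factor NRF1 and for ETS family proteins such as GABP, and 5 stretches that hold such letters are shown, 1 or more from each complex. They are the 250 bases before the annotated start in RefSeq (GRCm38.p6), 5′ to 3′ on the gene's strand. Capitals mark the NRF1 core (GCGCATGCG or GCGCACGCG) and the ETS core CCGGAAG on either strand. The windows are chr17:56717512-56717761 (+) for Ndufa11, chr8:83566508-83566757 (+) for Ndufb7, chr9:50603850-50604099 (-) for Sdhd, chr10:80406822-80407071 (-) for Uqcr11 and chr5:108434400-108434649 (-) for Atp5k.
Ndufa11: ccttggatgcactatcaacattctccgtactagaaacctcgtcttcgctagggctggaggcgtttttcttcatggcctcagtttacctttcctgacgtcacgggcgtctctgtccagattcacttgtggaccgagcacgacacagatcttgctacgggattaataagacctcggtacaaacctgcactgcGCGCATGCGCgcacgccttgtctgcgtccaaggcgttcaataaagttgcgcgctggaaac
Ndufb7: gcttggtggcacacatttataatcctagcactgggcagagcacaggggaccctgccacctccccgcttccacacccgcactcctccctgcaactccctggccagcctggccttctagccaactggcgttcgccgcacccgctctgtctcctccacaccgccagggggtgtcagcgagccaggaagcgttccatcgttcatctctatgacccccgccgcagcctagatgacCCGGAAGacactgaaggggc
Sdhd: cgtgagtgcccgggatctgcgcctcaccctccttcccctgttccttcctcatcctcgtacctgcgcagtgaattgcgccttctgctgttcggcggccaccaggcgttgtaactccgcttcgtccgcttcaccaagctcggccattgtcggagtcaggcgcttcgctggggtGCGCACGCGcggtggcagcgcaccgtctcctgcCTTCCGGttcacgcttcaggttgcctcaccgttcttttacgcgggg
Uqcr11: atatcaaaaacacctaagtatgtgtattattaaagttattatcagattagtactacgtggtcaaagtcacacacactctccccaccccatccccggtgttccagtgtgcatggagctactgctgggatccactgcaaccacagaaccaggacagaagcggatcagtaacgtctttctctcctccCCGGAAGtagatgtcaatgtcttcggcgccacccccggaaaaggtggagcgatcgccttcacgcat
Atp5k: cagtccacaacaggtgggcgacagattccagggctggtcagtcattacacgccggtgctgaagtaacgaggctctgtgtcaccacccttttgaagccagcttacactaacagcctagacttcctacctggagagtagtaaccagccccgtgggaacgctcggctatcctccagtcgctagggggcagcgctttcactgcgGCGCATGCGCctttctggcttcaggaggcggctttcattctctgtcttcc
In Ndufa11 and Atp5k the capitals are overlapping NRF1 matches on both strands, 60 and 50 bases before the start. Sdhd holds an NRF1 core 79 bases and an ETS core 46 bases before it. In Ndufb7 and Uqcr11 the capitals are ETS cores, 20 and 66 bases before the start. Uqcr11 also has an NRF1 core that begins 5 bases before the start and runs past the printed stretch, so it is not in capitals.

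Across the family, 56 of 67 genes matched a RefSeq entry, with 62 windows of 300 bases that run from 250 before to 50 after a start. The NRF1 core stood in 12 of the 62 windows (19.4%), against 3.36% of all 32851 windows. The ETS core stood in 13 (20.97% against 8.86%), the YY1 core AAGATGG in 12 (19.4% against 6.34%) and the estrogen-related receptor core AAGGTCA in 8 (12.9% against 4.72%), counting both strands and allowing motifs to overlap. These matches are letters in a window, and binding was not measured.

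Stem cells at day 0 held the highest levels of most members, in both lines. In control cells 53 of 67 members had their highest mean at day 0, and 35 had their lowest at day 10. In knockout cells 43 were highest at day 0 and 31 were lowest at day 8, the 43 counting Atp5l2, which stood at 0 on every day. The summed level of the 67 genes in control cells was 5234 ± 163 FPKM (SD, n = 3) on day 0, 3474 ± 1019 on day 3, 3878 ± 386 on day 5, 2961 ± 290 on day 8, 2765 ± 331 on day 10 and 3330 ± 112 on day 12. In knockout cells the sums were 5324 ± 37.7 FPKM on day 0, 3931 ± 311 on day 3, 4454 ± 192 on day 5, 3195 ± 537 on day 8, 3346 ± 99.1 on day 10 and 3519 ± 256 on day 12. In each line the sums of the later days lay below all 3 day 0 libraries. The spread at day 3 in control cells comes with replicate 1, whose sum was 2312 FPKM beside 3892 and 4217 in the other two. The days were deposited as separate tables, so levels are set across days as a description, with no test.

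**Figure D1:**
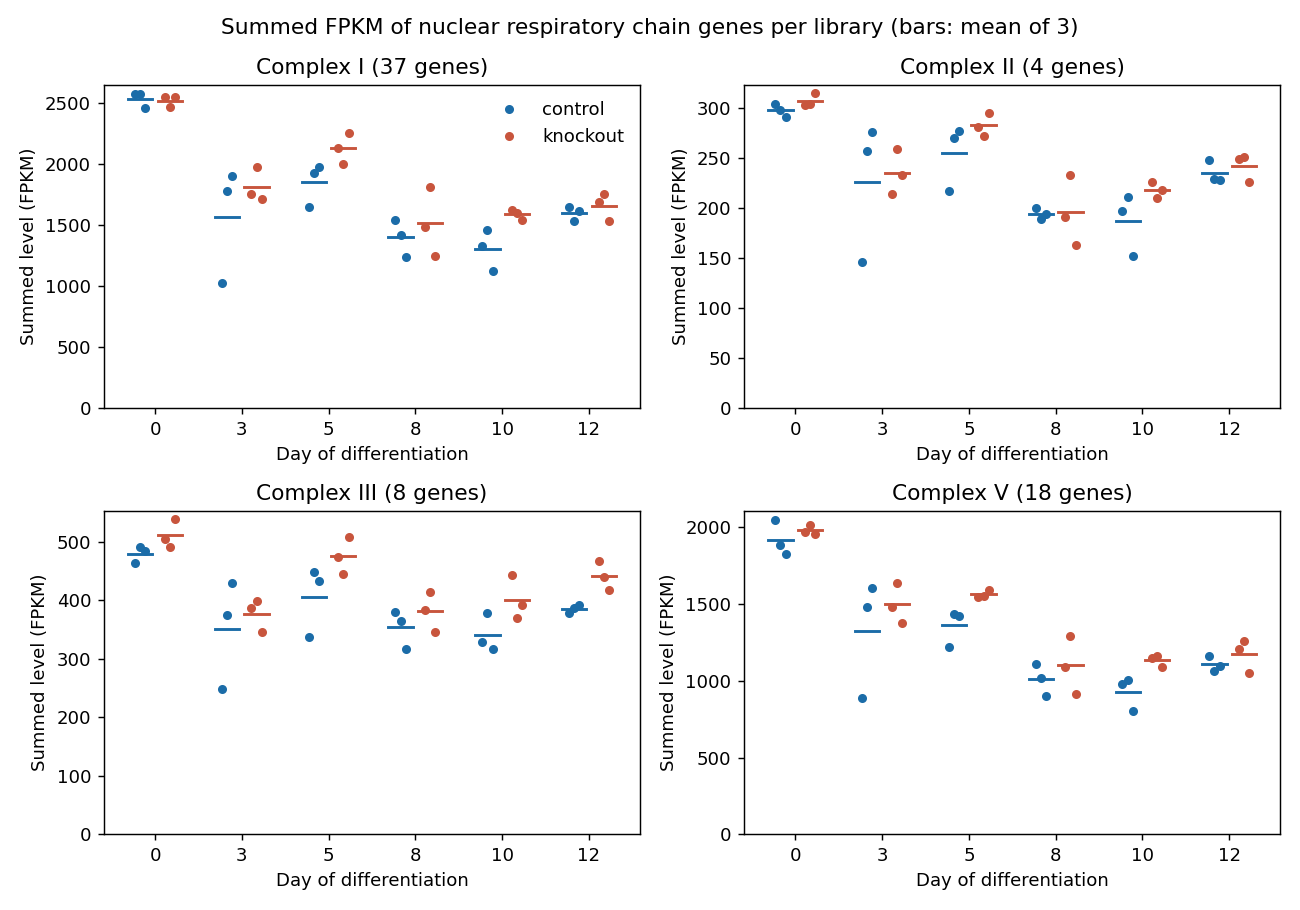
Summed FPKM of the members of complexes I, II, III and V in each library (points) by day of differentiation, control in blue and knockout in red, with bars at the mean of 3 libraries. The day 0 libraries are the highest for complexes I and V, and control replicate 1 at day 3 is the lowest library of its day in all 4 complexes.

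The lower levels after day 0 reached across all 4 complexes and went past the shift of genes in general. At day 10 control means lay below day 0 for 64 of 67 members, and for 56 (83.6%) all 3 libraries lay below all 3 of day 0, as they did for 43.9% of the 13022 genes compared. The median log2 difference from day 0 on the scale log2(FPKM + 1) was -0.67 for members and -0.17 for all genes. By complex it was -0.69 for I, -0.67 for II, -0.72 for III and -0.61 for V. In knockout cells 58 of 67 members lay below day 0 at day 10, 47 (70.1%) with no overlap against 35.96% of all genes, with medians of -0.53 for members and 0.03 for all genes. With all 36 libraries rescaled to a common median ratio, a setting chosen after seeing the data, 54 control and 56 knockout members lay below day 0, with member medians of -0.33 and -0.45 and all-gene medians of 0.11 and 0.10. Without control replicate 3 of day 10, or any other library of either day left out in turn, 63 to 65 control members and 56 to 59 knockout members lay below day 0.

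In control cells the deposited values of day 5 lay nearest to day 0. Control levels differed from day 0 by a median of -0.28 on day 5, against -0.56 on day 3, -0.68 on day 8 and -0.44 on day 12. The medians of all genes were -0.19 on day 3, -0.04 on day 5, -0.18 on day 8 and -0.06 on day 12. Without control replicate 1 the day 3 median was -0.30, close to that of day 5, and with all 36 libraries rescaled the 4 medians were -0.33, -0.20, -0.37 and -0.27 for days 3, 5, 8 and 12. From day 5 to day 8 the means of 59 members were lower in control cells and those of 60 in knockout cells, with member medians of -0.36 and -0.48 and all-gene medians of -0.16 and -0.17.

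The members did not differ from day 0 to the same extent. Ndufb8, an accessory subunit of the complex I membrane arm, stood at 205, 193 and 186 FPKM in control libraries at day 0 and at 59.1, 61.5 and 38.8 at day 10. Ndufa1, a small membrane subunit whose gene lies on the X chromosome, had a control mean of 27.7 ± 1.9 FPKM at day 0 and 7.09 ± 1.9 at day 10, the widest range among control means of members at 5 FPKM or more (3.91-fold between the highest and lowest day). Both genes have no overlap between the 2 days. Atp5b, the catalytic beta subunit of ATP synthase and the most abundant member, had 914 ± 95 FPKM at day 0 and 332 ± 57 at day 10 in control cells. Its share of the members' summed level was 17.4% at day 0 and 11.7% at day 12 in control cells, and 18.8% and 12.2% in knockout cells. Uqcrh, the hinge protein of complex III and its most abundant member, did not share the pattern, with 138 ± 15 FPKM at day 0 and 141 ± 30 at day 10.

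**Figure D2:**
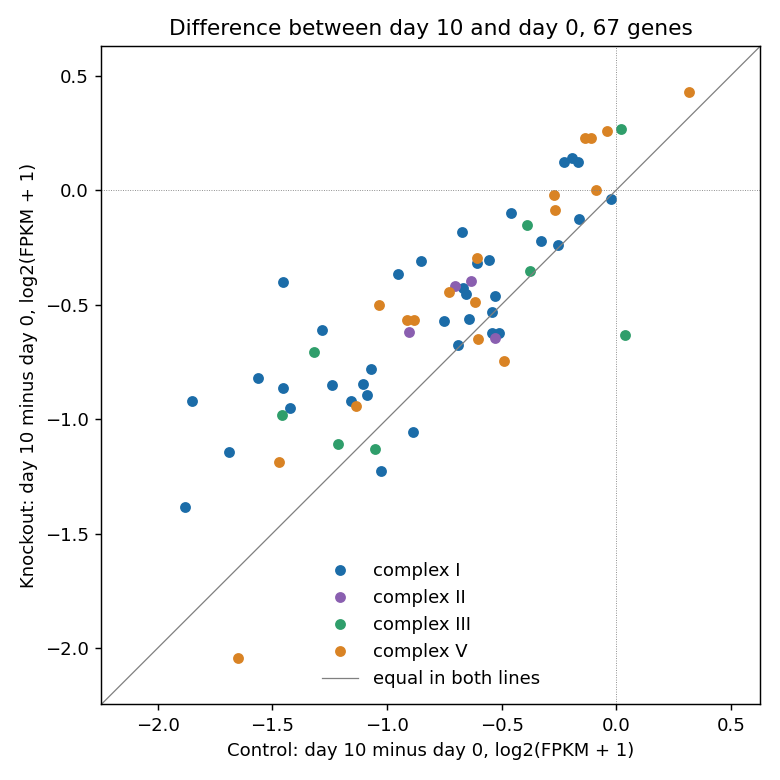
Difference between day 10 and day 0 in mean log2(FPKM + 1) for the 67 genes, control on the horizontal and knockout on the vertical axis, colored by complex, with the line of equal values. Most points lie below 0 in both lines, 64 in control and 58 in knockout cells, and Ndufa1, Ndufb8 and Ndufb6 lie far left.

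Because the 2 values of a ratio come from 1 library, shares within a library do not depend on its scaling. Complex III held 9.17 ± 0.51% of the members' summed level in control cells at day 0 and 12.4 ± 0.79% at day 10, and 9.60 ± 0.39% and 12.0 ± 0.90% in knockout cells. Its genes did not move alike. In control cells the log2 difference of day 10 from day 0 was 0.02 for Uqcrh and 0.04 for Uqcrq. The other complex III members lay between -1.46 and -0.37. In knockout cells Uqcrh differed by 0.27 and the other members of the complex by -1.13 to -0.15. The share of complex V was lower at day 10, with 36.7 ± 1.1% at day 0 and 33.7 ± 0.86% at day 10 in control cells. Its member Atp5b alone held 17.4 ± 1.3% and 11.9 ± 0.74% on those days, a wider fall than that of the complex. Complex I stayed between 45.2% and 48.5% of the sum in the means of all 12 groups. Complex II held 5.69 ± 0.06% at day 0 and 7.06 ± 0.19% at day 12 in control cells.

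Atp5g1, Atp5g2 and Atp5g3 encode the same mature c subunit, which forms the ring that turns in the membrane. Atp5g1 stood at 19.0, 17.6 and 15.8 FPKM in control libraries at day 0 and at 5.87, 4.60 and 4.26 at day 10, and in knockout libraries at 18.3, 17.8 and 17.8 and at 2.85, 4.68 and 3.46. Day 0 and day 10 do not overlap in either line. Its share of the summed level of the 3 genes was 20.5 ± 0.64% at day 0 and 9.80 ± 1.8% at day 5 in control cells, and 22.6 ± 2.3% and 11.1 ± 2.3% in knockout cells. Atp5g3 made up 77.7 ± 0.78% at day 0 and 86.9 ± 1.8% at day 5 in control cells. The coding sequences of Atp5g1 and Atp5g2 have near-identical copies at 1 and 2 other genes, so these shares are uncertain. Neither Atp5g1 nor Atp5g3 passed the test between the lines on any day.

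**Figure D3:**
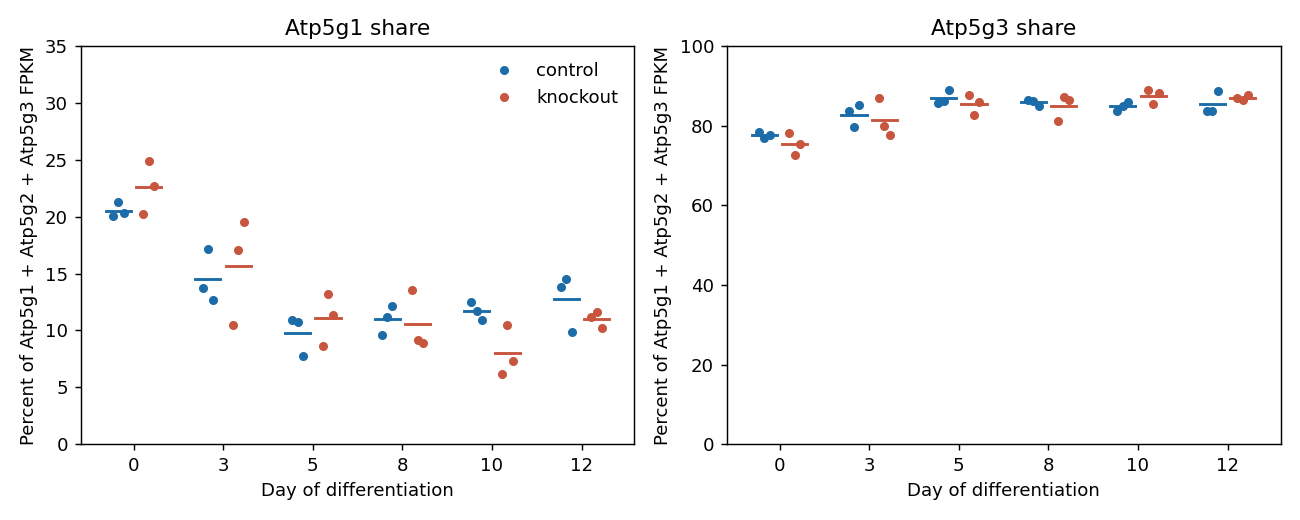
Atp5g1 and Atp5g3 as a percent of the summed FPKM of Atp5g1, Atp5g2 and Atp5g3 in each library by day, control in blue and knockout in red, with bars at the mean of 3 libraries. The Atp5g1 share is highest at day 0 in both lines, 20.5% in control and 22.6% in knockout cells on average.

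Some members were listed near 0. Ndufs5, an accessory subunit of complex I, had between 0.0520 and 1.04 FPKM in the 6 libraries of day 0, and Atp5l2 was at 0 in all 18 knockout libraries. The coding sequence of 14 of 66 members that have one in the GENCODE M21 annotation (GRCm38) had a copy at another annotated gene, at 95% identity over 90% of its length or more. Of the 6 such members below a mean of 5 FPKM, a limit set after the values were seen, 4 had such a copy (Ndufs5, Ndufb4, Atp5g2 and Atp5l), against 10 of the 60 above it. Atp5l had copies at 8 other genes. The median level was 15.4 FPKM with a copy and 52.3 without. How the authors' software split reads between copies is not given in the sources used here, so levels of Atp5g1, Atp5f1 and Uqcrb, which have 1, 1 and 3 copies, are uncertain. Gapdh, a glycolytic gene known for its many processed copies, was also low, at 3.67 ± 0.54 FPKM in control cells at day 10.

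The knockout compared with its control at the same day was tested in limma within each day's table, and calls are adjusted over all genes. The members as a group showed few calls, and on every day a smaller share of them passed than of all genes. At day 0, 2 of 65 tested members rose and 4 fell (9.23% of members in all), beside 14.5% of 12197 genes in either direction, 6.49% higher and 8.03% lower. That day 11 had an unadjusted p below 0.05, 5 higher and 6 lower. At day 3 none of 62 passed, beside 1.75% of all genes, with 2 at an unadjusted p below 0.05. At day 5, 1 of 63 rose and 1 fell (3.17%), beside 10.4% in either direction, 7.07% higher and 3.32% lower. That day 18 had an unadjusted p below 0.05, 17 higher and 1 lower. At day 8 none of 64 passed, beside 3.28%, with 5 at an unadjusted p below 0.05. At day 10, 8 of 64 rose and none fell (12.5%; 17 at an unadjusted p below 0.05, all higher), beside 20.2% in either direction, 15.0% higher and 5.12% lower. At day 12 none of 62 passed, beside 6.71%, with 5 at an unadjusted p below 0.05, and without control replicate 2 Uqcrq passed (0.89). In simulated data a small part of the 11976 to 13089 genes of each day was changed. A log2 difference of 0.5 was called for 56%, 4%, 29%, 6%, 18% and 20% of changed genes on the 6 days in turn. A simulated difference of 1 was called for 46% on day 3 and for 85% to 98% on the other days. Fewer genes were changed there than were called in the data, and adjusted p depends on that share. These rates therefore do not show which differences were detectable among the members.

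**Figure D4:**
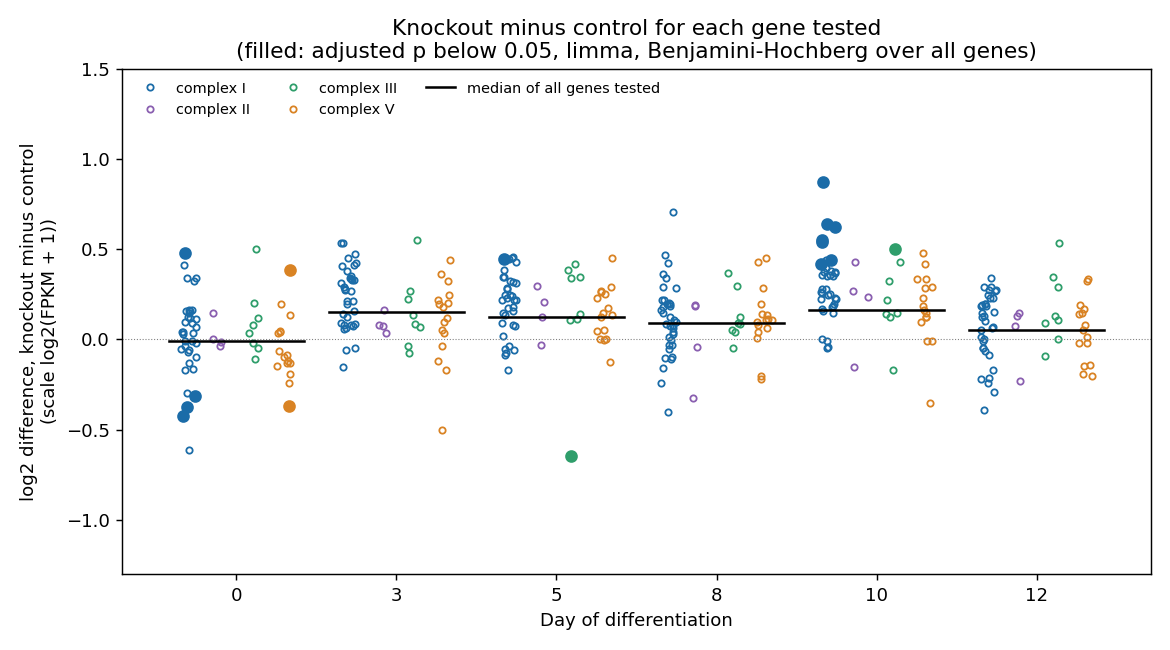
Difference of knockout minus control in log2(FPKM + 1) for each member tested on each day, colored by complex, with filled points for adjusted p below 0.05 and a black bar at the median of all genes tested. The filled points are 6 at day 0, 2 at day 5 and 8 at day 10, and the cloud of members sits near the black bar on each day.

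The member medians followed the shift of all genes. At day 10 the median log2 difference was 0.25 for members and 0.17 for all genes, and 45 of 64 members lay above the latter. On days 3, 5, 8 and 12 the member medians were 0.19, 0.21, 0.10 and 0.10, and those of all genes 0.15, 0.13, 0.09 and 0.05. Rescaling libraries to a common median ratio took the all-gene median to 0.01, 0.00 and 0.00 on days 3, 5 and 10, and the member median to 0.04, 0.07 and 0.07. Without control replicate 1, the day 3 medians were -0.04 and -0.02. Rescaled, 4 members rose and 1 fell at day 10, the last being Sdhc (-0.34, adjusted p = 0.0182 in limma). With each chromosome centred on its own median instead, Sdhc differed by -0.02 at day 10 and did not pass (adjusted p = 0.876 in limma).

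The knockout had higher levels of 7 complex I genes and 1 complex III gene at day 10, or 12.5% of the 64 members tested. Among all 12938 genes tested, 15.0% were called higher that day, a larger share than of the members. The sum of 10 cardiomyocyte markers at day 10 was 1223 to 1288 FPKM in control and 273 to 426 in knockout libraries. Whether these marker levels and the member calls are linked was not tested. Ndufa1 stood at 5.56, 9.16 and 6.54 FPKM in control libraries and at 13.1, 15.5 and 12.2 in knockout libraries. The groups do not overlap, and the log2 difference was 0.87 (SE 0.17, adjusted p = 0.00469 in limma). It passed the test in each of the 6 fits that left out 1 library, and missed it with no filter on low values (adjusted p = 0.0738 in limma). Ndufb8 stood at 59.1, 61.5 and 38.8 FPKM in control and at 80.9, 84.0 and 77.3 in knockout libraries, with no overlap (0.62, SE 0.17, adjusted p = 0.0208 in limma). Its call was lost without knockout replicate 2, and the difference ran from 0.42 to 0.74 over the 6 fits. It was also lost with no filter (adjusted p = 0.142 in limma) and in 1 fit of all 36 libraries (adjusted p = 0.0556). Ndufb6, another subunit of the membrane arm, stood at 16.0, 14.9 and 8.05 FPKM in control and at 20.96, 20.1 and 18.8 in knockout libraries (0.64, SE 0.20, adjusted p = 0.0405 in limma). Its lowest library is control replicate 3, and the call was lost without it, or without knockout replicate 1 or 2, the difference then ranging from 0.35 to 0.81 over the 6 fits.

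The other day 10 calls fall outside the rule for named genes and are given after their values were seen. Ndufa7, Ndufb7 and Ndufa5 (accessory subunits), Ndufv2 (an iron-sulfur subunit of the NADH-oxidizing arm) and Uqcr10 (complex III) had log2 differences of 0.54, 0.55, 0.42, 0.44 and 0.50, and the groups overlapped in Ndufb7. Without control replicate 3, the library that reads low, 3 members passed at day 10 rather than 8, and the member median was 0.17 against 0.09 for all genes. Without control replicate 1, knockout replicate 1 or knockout replicate 2 the counts were 5, 3 and 3, and without control replicate 2 the count was 12. Of the 8, Ndufa1, Ndufb8, Ndufa7 and Ndufv2 also passed on rescaled libraries. With no filter on low values Ndufa7 was the only 1 of the 8 to pass, and Ndufb5 passed beside it (0.37).

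**Figure D5:**
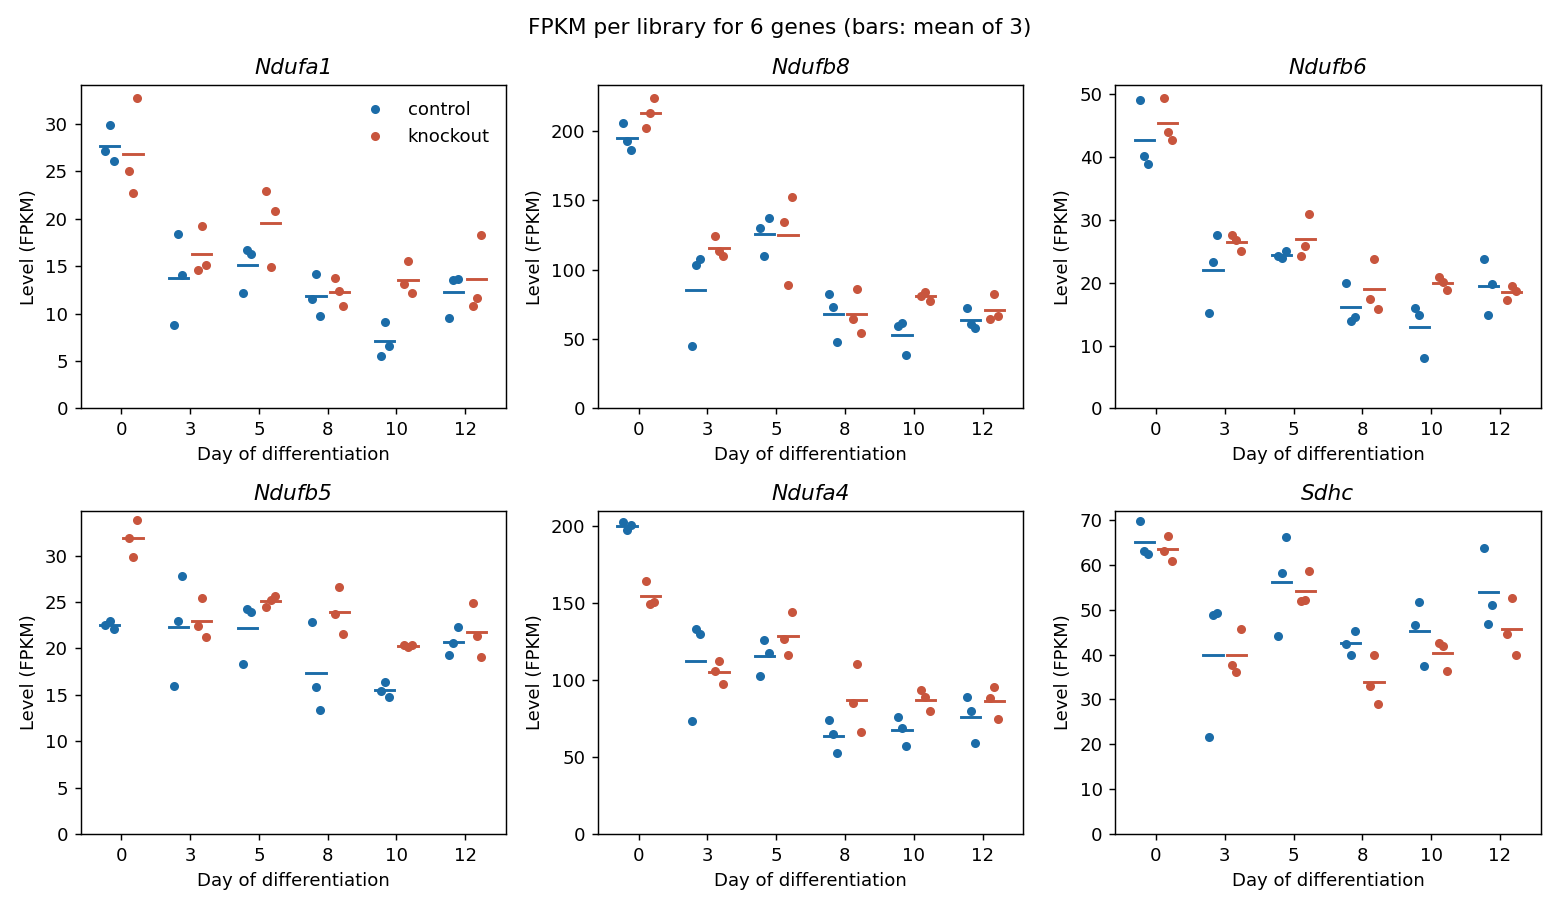
FPKM per library by day for Ndufa1, Ndufb8, Ndufb6, Ndufb5, Ndufa4 and Sdhc, control in blue and knockout in red, with bars at the mean of 3 libraries. At day 10 the control points of Ndufa1 lie between 5.56 and 9.16 FPKM, below all knockout points, and at day 0 the knockout points of Ndufa4 lie below all control points.

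In undifferentiated cells the calls went in both directions. Ndufb5, a complex I accessory subunit, stood at 22.6, 23.0 and 22.0 FPKM in control and 31.8, 29.9 and 33.8 in knockout libraries, a log2 difference of 0.48 (SE 0.07, adjusted p = 0.00466 in limma), and it passed in each of the 6 fits without 1 library. Ndufa4 stood at 202, 198 and 201 FPKM in control and 164, 149 and 151 in knockout libraries (-0.37, SE 0.05, adjusted p = 0.00608 in limma), also in each of the 6 fits. Neither gene's groups overlap. Of the rest, Ndufb2 (-0.42), Atp5f1 (-0.37) and Ndufv3 (-0.31), the most abundant member of complex I, fell, and Atp5j, a stalk subunit of complex V, rose by 0.38 on the log2 scale. Ndufv3 lost its call without control replicate 2 or 3 (-0.36 to -0.28 over the 6 fits). Ndufb2 lost it without control or knockout replicate 1 or 3 (-0.51 to -0.33), Atp5f1 without any 1 control library or knockout replicate 1 (-0.44 to -0.26), and Atp5j without any 1 library other than knockout replicate 1 (0.28 to 0.47). Without control replicates 1, 2 and 3 in turn, 3, 3 and 2 members passed at day 0 rather than 6. With the replicate block Ndufb5 and Ndufa4 kept their calls and the other 4 did not, at adjusted p of 0.0933, 0.0553, 0.0607 and 0.0739 for Ndufb2, Atp5f1, Ndufv3 and Atp5j in limma. In 1 fit of all 36 libraries none of the 6 passed, with adjusted p of 0.0706 for Ndufb5 and 0.307 for Ndufa4.

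Ndufa4l2 stood at 6.91, 7.14 and 4.94 FPKM in control and 4.24, 4.78 and 2.54 in knockout libraries at day 0, without passing (-0.61), and it passed with the replicate block (adjusted p = 0.0386 in limma). On day 3 its control mean was 0.456 ± 0.14 FPKM, while Ndufa4 had 112 ± 33.

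The position of the day 0 calls on the chromosomes was read too. Ndufa4 and Ndufb2 lie on chromosome 6, whose genes had a median of -0.25 at day 0 against 0.00 elsewhere. With each chromosome centred on its own median, the differences were -0.12 and -0.17 and neither passed.

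At day 5 Ndufs8, an iron-sulfur subunit of complex I, rose, at 7.49, 7.85 and 8.52 FPKM in control and 11.4, 10.9 and 11.3 in knockout libraries (log2 difference 0.45, SE 0.11, adjusted p = 0.0226 in limma). Uqcrq, a small complex III subunit, fell, at 33.4, 19.3 and 26.5 FPKM in control and 16.4, 15.9 and 16.2 in knockout libraries (-0.64, SE 0.17, adjusted p = 0.0334 in limma). The groups do not overlap in either gene. Ndufs8 lost its call without control replicate 2 or any 1 knockout library (0.41 to 0.49 over the 6 fits), and Uqcrq kept its call only without control replicate 2 (-0.84 to -0.46). Without knockout replicate 1 or 3 no member passed at day 5, and without each other library 1 did. On rescaled libraries 2 rose and 1 fell. Uqcrq varied widely between libraries on other days, with 37.6, 26.8 and 69.3 FPKM in knockout libraries at day 0.

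Complex II, which is also the succinate dehydrogenase of the TCA cycle, had no call on any day. Sdha, the flavin subunit, stood at 69.4, 72.6 and 52.0 FPKM in control and 87.4, 77.7 and 95.9 in knockout libraries at day 10, with no overlap (log2 difference 0.43, SE 0.15, adjusted p = 0.0642 in limma). Sdhb, the iron-sulfur subunit and the least abundant of the 4, stood at 48.9 ± 1.5 FPKM in control and 48.3 ± 0.82 in knockout cells at day 0. Sdhc and Sdhd anchor the enzyme in the membrane. Sdhc was lower in the mean of knockout libraries at days 8, 10 and 12, by -0.32, -0.15 and -0.23, and did not pass the test. Sdhd differed by 0.18, 0.24 and 0.15 on those days, likewise without passing.

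Sdhc lies on chromosome 1, as do Ndufa10, Ndufb3 and Ndufs1. Genes of chromosome 1 as a whole lay below the rest in the knockout, by 0.27, 0.29, 0.30 and 0.28 on the log2 scale at days 5, 8, 10 and 12 and by 0.05 at day 0. At day 12 the log2 difference was -0.39 for Ndufs1, -0.29 for Ndufb3, -0.23 for Sdhc and -0.22 for Ndufa10. None of these genes passed on any day in the values as deposited. On rescaled libraries Ndufs1 passed at day 12, at -0.45 (adjusted p = 0.0429 in limma), and in the other direction at day 0, at 0.17 (adjusted p = 0.0437). With each chromosome centred on its median, the day 12 differences were -0.18 for Ndufs1, -0.08 for Ndufb3, -0.01 for Sdhc and -0.01 for Ndufa10, none passing, and Ndufs1 passed at day 0, at 0.23 (adjusted p = 0.0248 in limma). Chromosome 6 and 8 genes lay lower at days 0 and 3, by 0.25 and 0.26 at day 0 and 0.26 and 0.24 at day 3.

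Whether the knockout effect differs between days was asked with an F test over all 36 libraries. None of 61 members passed, beside 11.7% of 10739 genes, and 3 had an unadjusted p below 0.05 in limma. The smallest adjusted p was 0.0991, for Ndufa2, whose log2 differences were 0.34, 0.53, 0.22, -0.40, 0.35 and 0.05 on the 6 days in turn. Ndufb11, Ndufa4, Ndufa1 and Ndufb2 followed. On rescaled libraries 7 of the 61 members passed, beside 28.9% of all genes. With each chromosome centred 3 passed, beside 23.7%, and with the replicate block 1 passed, beside 9.82%. That 1 was Ndufa2, which is in all 3 sets. Without control replicate 1 of day 3, Ndufa4 and Ndufa5 passed, beside 22.0% of all genes. Ndufa2 passed without knockout replicate 2 of day 8, beside 11.7%, and without control replicate 2 of day 10, beside 11.1%.

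Other genes of the pathway were read from lists. Among the nuclear subunits of complex IV, Cox6a2, the form of heart and skeletal muscle, fell by -1.86, -2.10 and -2.12 at days 8, 10 and 12, and Cox6b2, the testis form, rose by 0.48, 0.67, 0.95 and 0.61 from day 5 on. On each of those days this was the only subunit rising, and from day 8 the only one falling was Cox6a2, of 13 to 15 tested. All genes called in either direction made up 10.4%, 3.28%, 20.2% and 6.71% on days 5, 8, 10 and 12. Cox4i1 and Cox7a2 fell and Cox7b rose at day 0, and Cox5b fell at day 3. Of the 15 regulators of mitochondrial biogenesis, Ppargc1a, a coactivator of these genes, fell by -1.24 at day 8 and -1.22 at day 10, and Esrrg, a nuclear receptor of heart muscle, by -1.64 and -1.46. Nrf1 rose by 0.48 and Esrrb, listed at 0 in all day 0 libraries, by 0.74 at day 10. Of 26 assembly factors in the tables, at most 2 passed on any day, beside 1.75% to 20.2% of all genes over the 6 days.

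Some genes of glycolysis and the TCA cycle, which feed the chain, changed on some days. At day 0, when 6.49% of all genes were called higher and 8.03% lower, 7 of 19 glycolysis genes fell, led by the glucose transporter Slc2a1 (-0.75), and 8 of 18 TCA cycle genes passed, 3 higher and 5 lower. At day 5, 4 glycolysis genes rose, beside 7.07% of all genes. At day 10, 6 rose, beside 15.0%, among them Pkm2 (0.72), Eno1 (0.65), Slc2a1 (0.53) and Ldha (0.50), and 2 TCA genes rose, Suclg2 (0.76) and Idh3b (0.58). At day 12, 3 glycolysis genes rose and 1 fell, beside 6.71% of all genes called in either direction. No glycolysis gene passed at days 3 and 8, and no TCA cycle gene at days 3, 5, 8 and 12. Subunits encoded in the mitochondrial genome had no call at days 0 to 10. At day 12, 7 of 9 fell, including mt-Nd2 (-1.06) and mt-Cytb (-1.002), beside the same 6.71% of all genes. The nuclear members had no call on that day. Summed over the 9 mitochondrial genes, control libraries held 7914 to 8568 FPKM at day 12 and the 3 knockout libraries 5413 to 6112. Knockout replicate 3 of day 12 is the library with mt-Rnr2 at 53138 FPKM, and its part in the mitochondrial calls was not tested.

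Marker genes of several cell types also differed between the lines on the same days. Summed over 10 cardiomyocyte markers, control libraries held 1228 to 1530 FPKM on day 8, 1223 to 1288 on day 10 and 898 to 1082 on day 12, and knockout libraries 195 to 279, 273 to 426 and 377 to 435. Of the markers tested, 8 of 9, 9 of 9 and 9 of 10 fell, beside 3.28%, 20.2% and 6.71% of all genes called in either direction. The 7 pluripotency markers all rose at day 10, at 44.3 to 77.3 FPKM in control and 143 to 184 in knockout libraries, and visceral endoderm markers fell in 4 of 6, at 512 to 867 and 260 to 295. Among all genes tested that day, 15.0% were called higher and 5.12% lower. None of the pluripotency or cardiomyocyte markers was at 0 in every library of a group at day 10. In whole bodies, fewer cells of a type and less RNA per cell cannot be told apart, and the part of these cell types in the members' levels was not tested.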

How the data were processed

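Total RNA from undifferentiated cells and whole embryoid bodies was isolated with RNeasy columns and made into ribosomal-RNA-depleted libraries (ScriptSeq Complete Gold), per the labels' protocols. The authors deposited FPKM in 6 tables, 1 per day. The submitters' processing notes name TopHat, Cufflinks and build mm9, with no versions or settings, and do not say how tables were normalized.

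From these values, genes whose mean over a day's 6 libraries reached 1 FPKM were tested on log2(FPKM + 1) with limma 3.58.1 (R 4.3.3, eBayes with a trend), knockout minus control, two-sided, Benjamini-Hochberg over all genes tested, threshold 0.05. The interaction test used 5 line-by-day terms. With 3 libraries a group the smallest exact permutation p is 0.1. The fit was tested on simulated data. Chromosomes came from GENCODE M21 by Ensembl identifier (32616 of 37561 entries matched). Copies were searched with blastn, and sums and plots were made with Python 3.11.15 and matplotlib 3.10.9.

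Genes named were, by rule: at each day the 3 highest and 3 lowest members past the threshold, the most and least abundant of each complex; complex II, the Atp5g and Ndufa4 paralogues, the 5 smallest interaction p, the 3 widest control ranges, and up to 4 per other list. The members and lists were chosen with earlier results of these data known. Alternatives were a pseudocount of 0.1, no filter, rescaled libraries, centred chromosomes, a replicate block, 1 fit of 36 libraries, and each library left out. The values of 1 member are not reported here by name.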

Additional observations from a re-analysis of the deposited data

How the results depend on the processing

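None of the values of the named genes changed direction while past the threshold. Without the filter on low values 2, 0 and 2 members passed at days 0, 5 and 10. With all 36 libraries in 1 fit 0, 0, 1 and 5 passed at days 0, 5, 8 and 10. On rescaled libraries 5 passed at day 10, 1 at day 12 and 7 in the interaction test, the last beside 28.9% of all genes. With each chromosome centred 4 passed at day 10 and 3 in the interaction test, the last beside 23.7% of all genes. Leaving out 1 library gave 2 to 5 members on day 0, 0 on days 3 and 8, 0 to 1 on day 5, 3 to 12 on day 10, 0 to 1 on day 12 and 0 to 2 in the interaction test. The members below day 0 numbered 54 to 66 in control cells and 44 to 63 in knockout cells over the leave-one-out settings. The causes were not tested.

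Replicate numbers are shared between the lines. The deviations of same-numbered libraries correlated at -0.122 to 0.273 over the 6 days, not all above 0.1. Those of differently numbered libraries correlated at -0.330 to 0.268, a similar range. With 3 libraries a group these values cannot settle whether the numbers pair the libraries, so the replicate block was kept as an alternative. With the replicate block 4, 0, 2, 0, 10 and 0 members passed on days 0, 3, 5, 8, 10 and 12, and 1 in the interaction test. The 4 at day 0 are Ndufb5, Ndufa4, Ndufa2 and Ndufa4l2, of which the first 2 also passed without the block.

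Among single genes named, 813 of the values under the planned settings kept their direction and side of the threshold, 27 lost the call and 6 gained it. With 1 library left out 815 kept it, 28 lost it and 3 gained it. Most of these values were not past the threshold in the main fit and had no call to lose, so the counts do not give the share of calls kept. Of the called members named by rule, only Ndufa1, Ndufb5 and Ndufa4 passed in each of the 6 fits without 1 library. Depth is unknown, so no limit of detection is given.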
